A study of Mus musculus with 47 samples.

Results

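The effect of the Q140 allele was measured in striata homozygous for a Ccdc82 mutation, by comparing 7 Q140 Ccdc82-/- libraries with 8 Ccdc82-/- libraries across all genes. These 15 libraries were chosen by their genotype label alone, out of 47 in the series. Q140 Ccdc82-/- mice were heterozygous for the Q140 knock-in allele of Htt and homozygous for the Ccdc82 mutation, with 3 females and 4 males. Ccdc82-/- mice carried the same Ccdc82 mutation without Q140, with 4 females and 4 males. All mice were of a C57BL strain background and 6 months old, and the corpus striatum was the tissue. Because both groups are homozygous mutants, the control here is not a wild type mouse. The same contrast was available on 2 other backgrounds that share no library with this one: 8 Q140 against 8 wild type mice, and 8 Q140 Ccdc82+/- against 8 Ccdc82+/- mice. The nature of the Ccdc82 mutation, and the line that carries it, are not given in the sources used here.

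Huntington's disease is caused by an expanded CAG repeat in the huntingtin gene, Htt, and the striatum is the brain region it affects most. The Q140 knock-in mouse carries such a repeat in its own Htt gene, so the mutant protein is made wherever huntingtin normally is. Most striatal neurons are medium spiny neurons (MSN), inhibitory cells that receive cortical and dopaminergic input. Direct pathway MSN carry the dopamine D1 receptor and make substance P and dynorphin, and indirect pathway MSN carry the D2 receptor and make enkephalin. A decline of MSN identity genes is a well known transcriptional feature of Huntington's disease models. Ccdc82 encodes a coiled-coil domain protein.

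The 15 libraries held 42.2 to 55.7 M counts each, and levels are given as CPM (counts per M counts of the scaled library). Ccdc82 RNA was at 4.57 ± 0.666 CPM (SD, n = 8) in Ccdc82-/- and at 4.56 ± 0.652 CPM (SD, n = 7) in Q140 Ccdc82-/-, which is 38.03% and 37.96% of the wild type level. The groups overlapped, and an exact two-sided permutation test of their means gave p = 0.985. Htt RNA ranged from 195 to 221 CPM (median 211) in Ccdc82-/- and from 188 to 205 (median 194) in Q140 Ccdc82-/-, a log2 change of -0.094 ± 0.030 (SE), adjusted p = 0.0111 by edgeR, with overlapping libraries. The call of Htt was lost on FPKM scaling (log2 change -0.028, adjusted p = 0.499 by limma) and in a fit of either sex alone. Markers of striatal neurons were abundant under this tissue label: Ppp1r1b (DARPP-32), a relay of dopamine signals, had a mean of 908 FPKM in Ccdc82-/-. One library, Ccdc82-/- male 1, stood apart through markers of the choroid plexus, a tissue within the ventricles that secretes cerebrospinal fluid. That library had a summed level of 716 CPM over 14 markers, against 186 to 232 CPM in the other 7 of its group. Results are therefore also given without it. Of the Q140 Ccdc82-/- libraries 4 of 7 sat in column 5 of the plate, against 1 of 8 Ccdc82-/- libraries, and the counts with plate column as a factor are in the closing section.

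With Q140, 6367 of 19193 tested genes (33.2%) changed on the Ccdc82-/- background at an adjusted p under 0.05 (edgeR quasi-likelihood test). Of these 3360 (17.5% of those tested) were higher and 3007 (15.7%) were lower. Most changes were small. Among called genes 49.4% moved by less than 0.2 on the log2 scale, 960 moved by at least 0.5 (424 up, 536 down), and 203 by at least 1 (74 up, 129 down). The median over all tested genes was 0.0069. At 1820 genes (9.48%) no Q140 Ccdc82-/- library overlapped any Ccdc82-/- library, with 791 separated upward and 1029 downward. The split depends on scaling: 52.8% of called genes were higher here, and 77.2% were higher when limma was run on the deposited FPKM, which are scaled by total counts (6134 higher, 1812 lower, median over all genes 0.067). Without the library of high choroid plexus markers 6197 genes were called, 3277 higher and 2920 lower. They include 5952 of the 6367 (93.5%), all in the same direction.

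**Figure D1:**
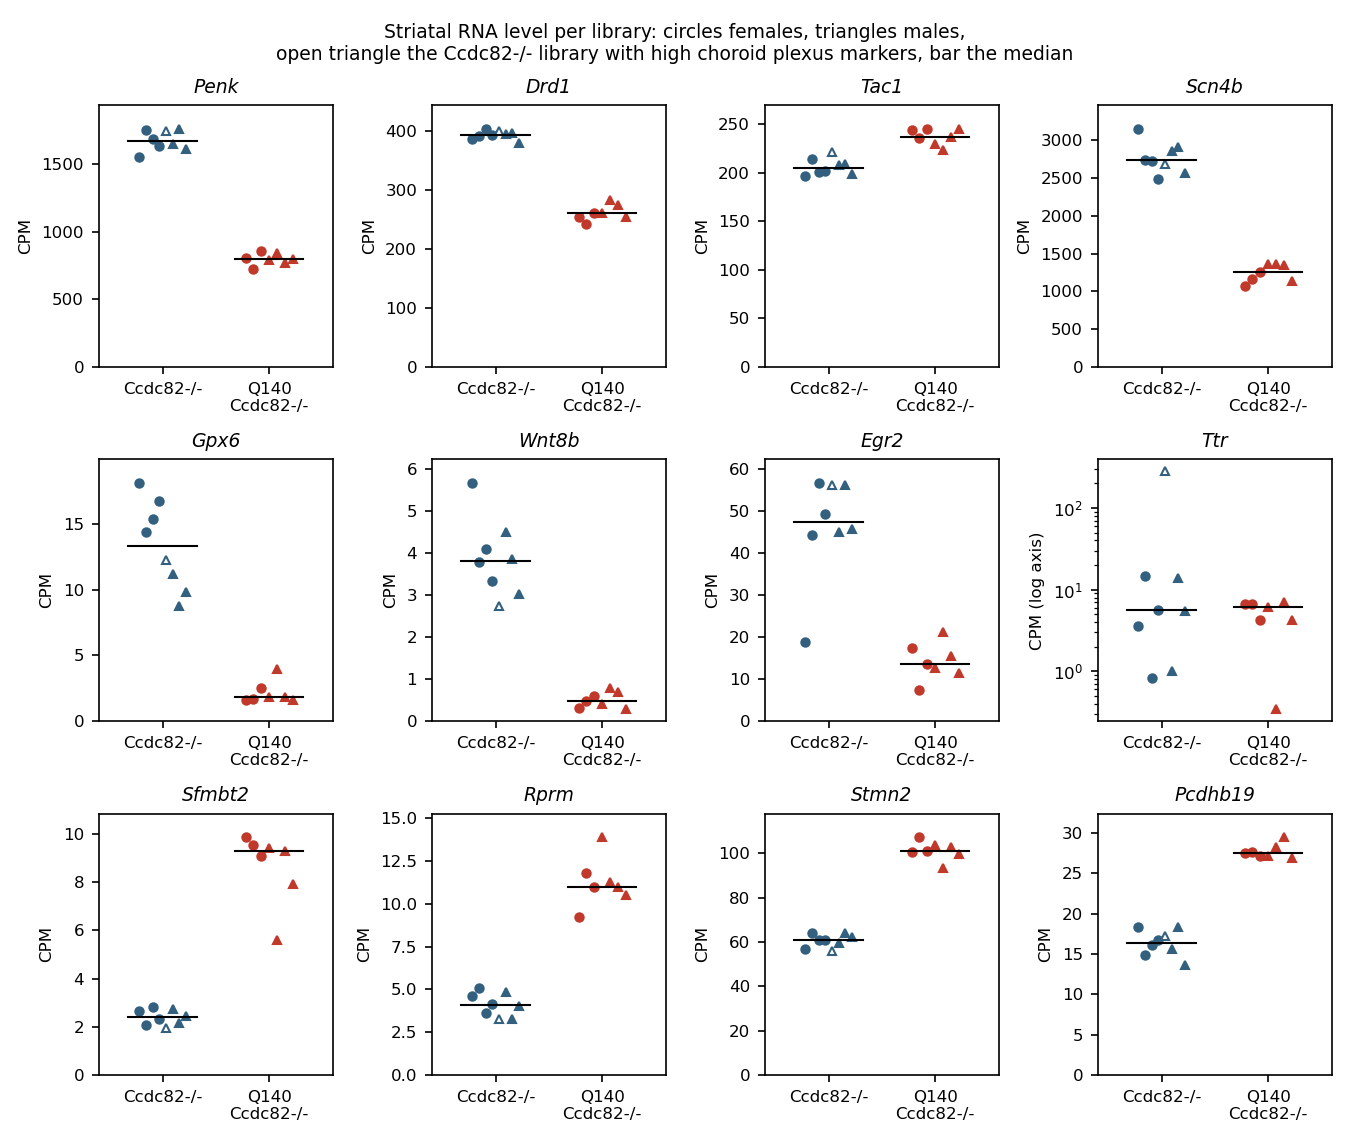
CPM of 12 genes in each of the 8 Ccdc82-/- (blue) and 7 Q140 Ccdc82-/- (red) libraries, with circles for females, triangles for males, an open triangle for the library of high choroid plexus markers and a bar at the group median. Axes start at 0 except for Ttr, which has a log axis. Penk, Drd1, Scn4b, Gpx6 and Wnt8b lie lower and Tac1, Sfmbt2, Rprm, Stmn2 and Pcdhb19 higher in every Q140 library, Egr2 overlaps through 1 low control library, and Ttr is set apart by the open triangle.

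Genes that mark both kinds of MSN were broadly lower. Of 35 tested, 32 fell and 1 rose, against 15.7% and 17.5% of all genes, and 30 were lower in every Q140 library than in any control library. The list's median log2 change was -0.44, beside 0.0069 over all genes. Summed over the list, Ccdc82-/- libraries held 30677 to 33210 CPM and Q140 Ccdc82-/- libraries 20992 to 22547 CPM, with no overlap. These are bulk libraries, so fewer cells of a type and less RNA per cell cannot be told apart. The sodium channel beta subunit Scn4b ranged from 2492 to 3148 CPM (median 2739) in Ccdc82-/- and from 1074 to 1359 (median 1255) with Q140, a log2 change of -1.16 ± 0.065 (SE), adjusted p = 1.94e-18. Every Q140 library lay well under the lowest control. The ryanodine receptor Ryr1, a calcium release channel, went from a range of 139 to 185 CPM (median 166) in Ccdc82-/- to 45.3 to 74.6 (median 54.5) with Q140, and its log2 change was -1.501 ± 0.10 (SE), adjusted p = 3.35e-15. The largest fall in the list was that of Ddit4l, an inhibitor of mTOR signalling, from a range of 34.8 to 42.6 CPM (median 38.6) in Ccdc82-/- to 8.73 to 12.7 (median 10.04) with Q140, or -1.904 on the log2 scale. The 5 list members with the smallest p were Arpp19, Ddit4l, Pde1b, Adcy5 and Arpp21. The phosphatase regulator Arpp19 ran from 687 to 742 CPM (median 730.1) in controls and from 432 to 465 (median 450.2) with Q140, a change of -0.69 ± 0.031 (SE), adjusted p = 4.48e-23. Pde1b, a calmodulin-dependent phosphodiesterase, fell by 0.61 on the log2 scale, and Adcy5, the main striatal adenylyl cyclase, fell by 0.64. The exception in the list was Gad2, a GABA-synthesising enzyme, which rose by 0.14 from a range of 482 to 564 CPM (median 541) in Ccdc82-/- to 569 to 645 (median 586) with Q140. Its partner Gad1 was not called, at 0.033.

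Markers of the 2 MSN types gave different counts. Of 11 tested indirect pathway markers 7 fell and none rose (63.6% called, against 33.2% of all genes), with a median of -0.38. Of 14 direct pathway markers 6 fell and 5 rose (78.6% called), with a median of -0.013, or 0.052 on FPKM scaling. Penk, the enkephalin precursor, had the smallest p of all genes. It ranged from 1554 to 1756 CPM (median 1666) in Ccdc82-/- and from 723 to 859 (median 798) in Q140 Ccdc82-/-, so the mutant libraries held less than the lowest control by a wide gap (log2 change -1.07 ± 0.042 (SE), adjusted p = 6.62e-25). The adenosine receptor gene Adora2a went from a range of 400.2 to 478 CPM (median 449) in Ccdc82-/- to 242 to 283 (median 257) with Q140, a log2 change of -0.77 ± 0.049 (SE), adjusted p = 3.59e-17. Drd2, the D2 receptor, fell by 0.60, the orphan receptor Gpr6 by 0.67 and the delta opioid receptor Oprd1 by 0.35 on the log2 scale, all without overlap. On the direct side Drd1 went from a range of 379.8 to 403 CPM (median 394) in Ccdc82-/- to 241 to 283 (median 261) with Q140, a log2 change of -0.59 ± 0.034 (SE), adjusted p = 3.46e-19, close to the change of Drd2. The muscarinic receptor Chrm4 fell by 0.57 and the retinoid receptor Rxrg by 0.56. In contrast Tac1, the substance P precursor, rose from a range of 197 to 221 CPM (median 205) in Ccdc82-/- to 223 to 245 (median 237) with Q140, a log2 change of 0.20 ± 0.037 (SE), adjusted p = 2.75e-05, and the developmental factor Isl1 rose by 0.41. Both rises were without overlap, so receptors and peptide of the direct pathway moved in opposite directions. The dynorphin precursor Pdyn was not called, at 0.058. That direct and indirect lists differ from each other was not tested.

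**Figure D2:**
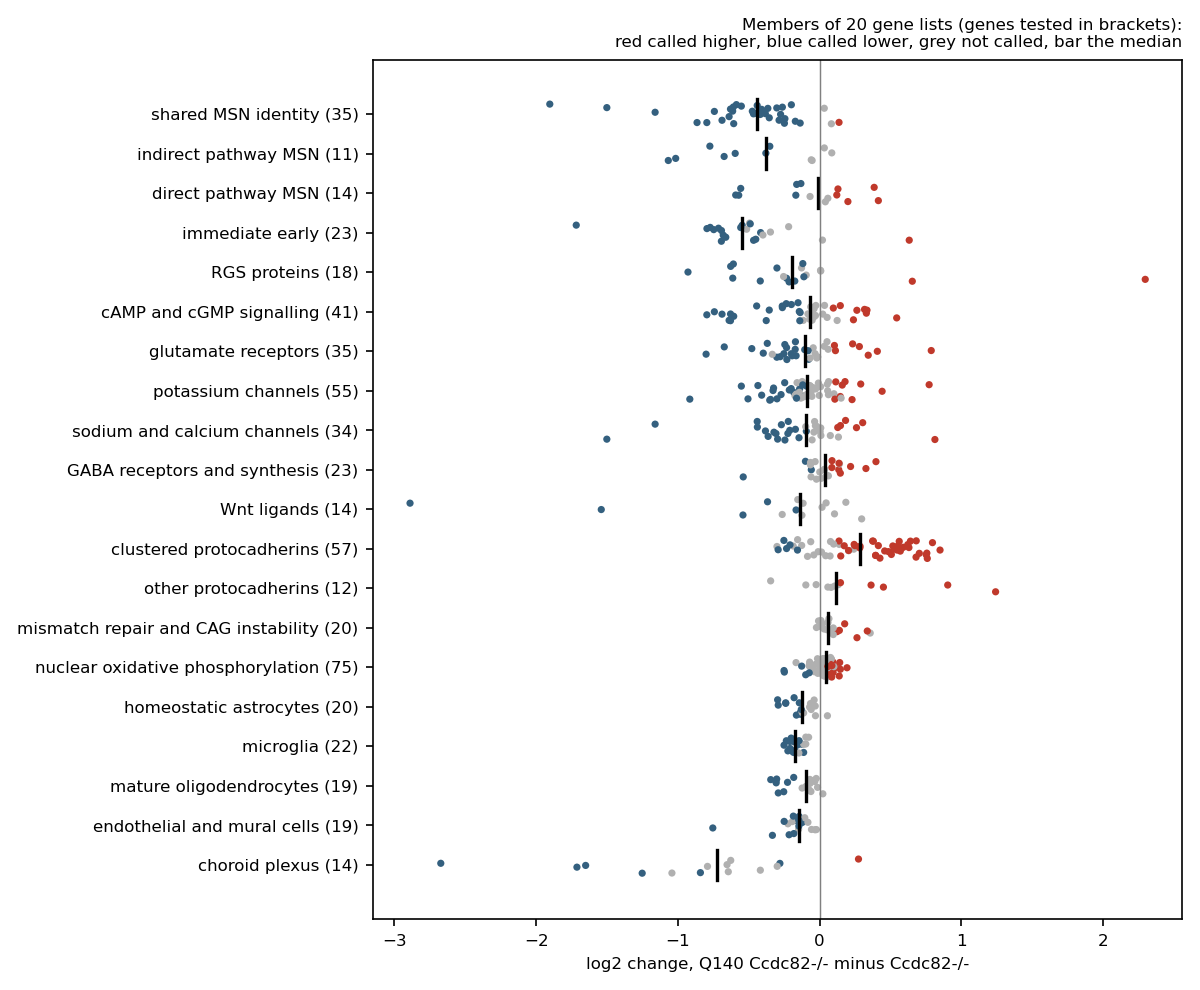
Log2 change of each tested member of 20 gene lists, Q140 Ccdc82-/- minus Ccdc82-/-, in red where called higher, in blue where called lower and in grey where not called, with a bar at the list's median. MSN identity and immediate-early genes lie mostly left of 0 (medians -0.44 and -0.55), clustered protocadherins mostly right (0.29), and the glial and vascular lists slightly left.

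Among dopamine genes the receptors of the MSN changed, and peptide genes moved in both directions. Of 11 tested genes of dopamine synthesis, transport, breakdown and reception, Drd1 and Drd2 fell and the other 9 were not called. That is 18.2% called, against 33.2% of all genes. Th, the rate-limiting enzyme of dopamine synthesis, had 5.92 to 9.22 CPM (median 7.62) in Ccdc82-/- and 5.48 to 7.899 (median 6.99) with Q140 (log2 change -0.20 ± 0.097 (SE), adjusted p = 0.111), and passed once the library of high choroid plexus markers was left out (-0.25, adjusted p = 0.0447). Of 26 neuropeptides and opioid or peptide receptors, 7 rose and 4 fell (42.3% called, against 33.2% of all genes). Nts, the neurotensin precursor, rose from a range of 0.9201 to 3.76 CPM (median 2.09) in Ccdc82-/- to 3.37 to 6.304 (median 4.85) with Q140, a log2 change of 1.17 ± 0.23 (SE), adjusted p = 7.39e-05, with overlapping libraries. The neuropeptide Y receptor Npy1r rose by 0.49 and the nociceptin receptor Oprl1 by 0.42, both without overlap.

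Second-messenger genes downstream of the dopamine and adenosine receptors fell more often than they rose. Of 41 genes of cAMP and cGMP signalling 18 fell and 8 rose, with a median of -0.070 (0.0036 on FPKM scaling, with 16 lower and 11 higher). These are 43.9% lower and 19.5% higher, against 15.7% and 17.5% of all genes. Many of those that fell, among them Arpp19, Pde1b, Adcy5, Pde10a, Arpp21 and Ppp1r1b, are also in the MSN identity list. Their falls are therefore counted in both lists and are not a separate result. Ppp1r1b, the target of protein kinase A known as DARPP-32, ranged from 2546 to 2937 CPM (median 2718) in Ccdc82-/- and from 1658 to 1849.7 (median 1770) in Q140 Ccdc82-/-, a log2 change of -0.63 ± 0.039 (SE), adjusted p = 2.18e-18. Its groups did not overlap. Among 18 RGS genes, which shorten G protein signals, 11 fell (61.1%) and 2 rose (11.1%). Rgs9 and Rgs7bp, among those that fell, are also in the MSN identity list. Rgs9, the striatal RGS protein, went from a range of 870.2 to 1046 CPM (median 935) in Ccdc82-/- to 579 to 679 (median 610.1) with Q140 (-0.61 ± 0.040 (SE), adjusted p = 2.23e-17), Rgs14 fell by 0.93 and Rgs4 by 0.61 on the log2 scale. Rgs19 went the other way, from a range of 5.75 to 7.83 CPM (median 7.06) in Ccdc82-/- to 9.62 to 12.6 (median 10.8) with Q140, with a log2 change of 0.65 ± 0.059 (SE), adjusted p = 8.11e-13. Rgs13 also rose, by 2.298, from a very low range of 0.08899 to 0.206 CPM (median 0.158) in Ccdc82-/- to 0.496 to 1.05 (median 0.706) with Q140. It passed the filter on low counts through Q140 libraries, so nothing is read from its call.

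More ion channel and glutamate receptor genes fell than rose, and more GABA genes rose than fell, by margins that depend on scaling. Of 55 potassium channel genes 21 fell and 9 rose (median -0.092), or 14 and 11 on FPKM scaling (median -0.025). Of 34 sodium and calcium channel and pump genes 17 fell and 6 rose (median -0.096), or 14 and 11 on FPKM scaling (median -0.030). These are 54.5% and 67.6% called, against 33.2% of all genes, of which 17.5% rose and 15.7% fell. Kcnh4, a voltage-gated potassium channel, went from a range of 92.5 to 123.2 CPM (median 109.8) in Ccdc82-/- to 54.1 to 60.8 (median 58.7) with Q140, a log2 change of -0.92 ± 0.062 (SE), adjusted p = 5.60e-16. Kcnh3 fell by 0.51, Kcnab1 by 0.55 and the inward rectifier Kcnj4 by 0.41, each without overlap. The IP3 receptor Itpr1 and the calcium pump Atp2b1 both fell by 0.44 on the log2 scale. Kcnab1, Kcnj4 and Itpr1 are also in the MSN identity list. Of 35 glutamate receptor genes and their auxiliary subunits 19 fell and 7 rose (74.3% called), or 14 and 10 on FPKM scaling. The kainate receptor partner Neto2 went from a range of 189 to 214 CPM (median 198) in Ccdc82-/- to 98.6 to 133 (median 115) with Q140 (-0.80 ± 0.057 (SE), adjusted p = 2.05e-15) and the kainate subunit Grik2 fell by 0.48. The metabotropic receptor Grm4 fell by 0.37. Of 23 GABA genes 8 rose and 3 fell (47.8% called, median 0.036), or 12 and 1 on FPKM scaling. The extrasynaptic subunit Gabrd fell, from a range of 140.5 to 167 CPM (median 152) in Ccdc82-/- to 97.4 to 113 (median 105) with Q140 (-0.54 ± 0.040 (SE), adjusted p = 2.46e-15), while the subunits Gabra5 and Gabrb2 rose by 0.40 and 0.22 with overlapping libraries. Of 41 genes of synaptic vesicles 11 rose and 9 fell, or 16 and 6 on FPKM scaling. Syp, a membrane protein of synaptic vesicles, was among the clearest rises, from a range of 445 to 504 CPM (median 465) in Ccdc82-/- to 575 to 697 (median 671) with Q140, a log2 change of 0.50 ± 0.030 (SE), adjusted p = 9.36e-19, and the calcium sensor Syt9 fell by 0.79.

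Immediate-early genes, which neurons switch on within minutes of activity, were lower. Of 23 tested, 15 fell and 1 rose (69.6% called, against 33.2% of all genes), with a median of -0.55 (beside 0.0069 over all genes). The list summed to 1758 to 3437 CPM in Ccdc82-/- and to 1499 to 2138 CPM in Q140 Ccdc82-/-, so the groups overlapped. Egr2, a zinc finger transcription factor, ranged from 18.8 to 56.7 CPM (median 47.5) in Ccdc82-/- and from 7.303 to 21.2 (median 13.7) with Q140, a log2 change of -1.72 ± 0.28 (SE), adjusted p = 4.38e-06. Of the controls 7 lay at or above 44.3 CPM, and Ccdc82-/- female 1, at 18.8 CPM, was the one that overlapped. Dusp1, a phosphatase that switches off MAP kinases, went from a range of 37.8 to 53.2 CPM (median 43.6) in Ccdc82-/- to 22.2 to 35.2 (median 24.6) with Q140 without overlap (-0.75 ± 0.14 (SE), adjusted p = 4.03e-05). Homer1, a postsynaptic scaffold gene with an activity-induced short form, fell by 0.68 and Ier5 by 0.45. Arc, a synaptic protein gene that follows activity, was lower by 0.79, but its libraries overlapped. The orphan nuclear receptors split: Nr4a1 fell, at -0.69 ± 0.25 (SE), adjusted p = 0.0271, whereas Nr4a2 rose, at 0.63 ± 0.20 (SE), adjusted p = 0.0129. Arc, Nr4a1 and Nr4a2 were named after their values had been seen. The call of Nr4a1 was lost without any 1 of 4 libraries (Ccdc82-/- male 3 and Q140 Ccdc82-/- female 2, female 3 or male 4), with adjusted p-values up to 0.0596. It was also lost on FPKM scaling, with the replicate block, with plate column as a factor and in either sex alone, with adjusted p-values up to 0.316. The call of Nr4a2 was lost with plate column as a factor and in males only, with adjusted p-values up to 0.127.

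Many immediate-early genes are switched on through the cAMP response element (CRE), the binding sequence of CREB. To show what such an element looks like at genes that fell here, the 250 bases upstream of the RefSeq start site of Dusp1 and Nr4a1 are printed 5′ to 3′ on the gene's own strand (GRCm38.p6, Dusp1 chr17:26508473-26508722 on the minus strand, Nr4a1 chr15:101266596-101266845 on the plus strand). Capitals mark the full element TGACGTCA and the shorter element TGCGTCA, each searched on both strands, with no overlap between them.
Dusp1: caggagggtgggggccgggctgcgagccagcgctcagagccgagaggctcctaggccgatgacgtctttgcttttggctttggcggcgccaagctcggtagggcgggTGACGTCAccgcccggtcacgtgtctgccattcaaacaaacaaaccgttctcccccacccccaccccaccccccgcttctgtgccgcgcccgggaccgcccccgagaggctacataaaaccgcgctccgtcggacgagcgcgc
Nr4a1: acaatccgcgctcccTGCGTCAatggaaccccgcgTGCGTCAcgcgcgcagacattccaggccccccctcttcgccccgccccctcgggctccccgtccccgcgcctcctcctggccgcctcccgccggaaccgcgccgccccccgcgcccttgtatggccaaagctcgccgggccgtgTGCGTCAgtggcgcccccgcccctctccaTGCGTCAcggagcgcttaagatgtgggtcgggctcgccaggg

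The Dusp1 window holds 1 full element, 143 bases before the start site, and the Nr4a1 window holds 4 shorter ones, at 235, 215, 71 and 42 bases before it. Of 32851 such RefSeq windows 1.55% hold TGACGTCA and 1.75% hold TGCGTCA. Windows were found for 18 of the 23 immediate-early genes tested. Of these 18 genes 2 hold the full element (Dusp1 and Btg2), 2 the shorter one (Nr4a1 and Fosb) and 14 the string TGACG, which is part of every full element and is in 17.8% of all windows. A gene can have several windows and was counted if any of them matched. The counts of genes are therefore not on the same footing as the shares of windows. Because 5 of the 23 genes have no window here, nothing is read from these counts about the list. Neither Fosb nor Btg2 was called (-0.22 and -0.67), and Btg2 passed without the library of high choroid plexus markers (-0.73, adjusted p = 0.0486), by DESeq2 and in a fit of the 2 groups alone. A match describes these letters only.

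The largest falls among genes that averaged 1 or more on the log2 CPM scale were, besides Ttr, Wnt8b, Gpx6, Mafa, Cpne9, Ddit4l, Egr2, Plk5, Sec14l3, Slc4a11, Abhd11os and Phex. Wnt8b, a secreted Wnt ligand, ranged from 2.73 to 5.66 CPM (median 3.82) in Ccdc82-/- and from 0.297 to 0.797 (median 0.476) in Q140 Ccdc82-/-, a log2 change of -2.89 ± 0.25 (SE), adjusted p = 4.10e-13. All 7 Q140 libraries held under 1 CPM. Another Wnt ligand, Wnt4, fell by 1.54, and in all 5 of 14 tested ligands fell and none rose, or 35.7% called, near the 33.2% of all genes. Gpx6, a glutathione peroxidase, went from a range of 8.76 to 18.1 CPM (median 13.3) in Ccdc82-/- to 1.58 to 3.98 (median 1.801) with Q140, a log2 change of -2.55 ± 0.18 (SE), adjusted p = 3.16e-15. Among controls the 4 females held 14.4 to 18.1 CPM and the 4 males 8.76 to 12.3 CPM, all above the Q140 range. Mafa, a transcription factor of the Maf family, went from a range of 3.104 to 4.47 CPM (median 3.58) in Ccdc82-/- to 0.439 to 1.07 (median 0.756) with Q140, a log2 change of -2.35 ± 0.15 (SE), adjusted p = 2.31e-18. Plk5, a polo-like kinase gene expressed in neurons, had the smallest p among these 12, from a range of 34.7 to 46.7 CPM (median 40.6) in Ccdc82-/- to 9.76 to 14.97 (median 12.3) with Q140 (-1.71 ± 0.075 (SE), adjusted p = 1.99e-22). The calcium-dependent membrane binder Cpne9 fell by 2.11, the lipid transfer gene Sec14l3 by 1.71, the membrane transporter Slc4a11 by 1.69 and the endopeptidase Phex by 1.61, none with overlapping libraries. Abhd11os, which fell by 1.64, is an antisense RNA, and whether the counting used strand is not given in the sources used here, so its reads may be shared with the opposite gene.

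Several falls were smaller and very regular. Chn1, a Rac regulator, ranged from 853 to 925 CPM (median 882) in controls and from 626 to 653 (median 646) with Q140, a log2 change of -0.47 ± 0.022 (SE), adjusted p = 2.08e-22. The repressor Zbtb18 went from a range of 165 to 174 CPM (median 169.6) in Ccdc82-/- to 103 to 112 (median 106) with Q140, a log2 change of -0.67 ± 0.032 (SE), adjusted p = 3.11e-22. At both genes the gap between the groups was wider than the spread within either. Lzts3 fell by 0.51, the GTPase regulator Bcr by 0.49 and the phosphatase subunit Ppp4r4 by 0.70.

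The largest rises were Gm6089, Sfmbt2, Rprm, Dsp, Fam196b, Ipcef1, Pcdh20, Greb1l, Tmc3, Nts, Tnnt2 and AW551984. Sfmbt2, a Polycomb group gene, ranged from 1.964 to 2.84 CPM (median 2.403) in Ccdc82-/- and from 5.61 to 9.86 (median 9.29) in Q140 Ccdc82-/-, a log2 change of 1.85 ± 0.12 (SE), adjusted p = 6.03e-17. Even the lowest Q140 library was above every control. Rprm, a p53-regulated inhibitor of the cell cycle, went from a range of 3.25 to 5.12 CPM (median 4.095) in Ccdc82-/- to 9.23 to 13.9 (median 10.97) with Q140, a log2 change of 1.45 ± 0.12 (SE), adjusted p = 1.67e-13. Ipcef1, a partner of cytohesins, went from a range of 3.15 to 4.32 CPM (median 3.85) in Ccdc82-/- to 7.26 to 11.3 (median 9.31) with Q140 (1.28 ± 0.11 (SE), adjusted p = 1.89e-13). Fam196b rose by 1.297, Greb1l by 1.22, the transmembrane channel-like gene Tmc3 by 1.22 and the cardiac troponin T gene Tnnt2 by 1.09, all without overlap. The desmosomal gene Dsp rose by 1.400 and AW551984 by 1.07, both with overlapping libraries. Gm6089 is a processed pseudogene whose reads may belong to a parent gene. It spread from 0.4502 to 6.103 CPM within the Q140 group (log2 change 2.26 ± 0.63 (SE), adjusted p = 0.00416).

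Among the rises with the smallest p were Sfmbt2, Stmn2, Gprasp2, Syp, Nagk, Pcdhb19, Fat1, Chd3 and the pseudogene Gm2420. Because Gm2420 was near 0 in every Ccdc82-/- library, nothing is read from its place among them. Stmn2, a regulator of microtubules in growing axons, ranged from 56.1 to 64.3 CPM (median 60.7) in controls and from 93.2 to 107 (median 101) with Q140, a log2 change of 0.74 ± 0.035 (SE), adjusted p = 1.99e-22. Gprasp2, which sorts G protein-coupled receptors, went from a range of 98.8 to 109 CPM (median 107) in Ccdc82-/- to 149 to 162 (median 156) with Q140 (0.55 ± 0.030 (SE), adjusted p = 1.43e-20). Fat1, an atypical cadherin, went from a range of 60.96 to 75.2 CPM (median 71.1) in Ccdc82-/- to 109 to 124 (median 113) with Q140, with a log2 change of 0.73 ± 0.048 (SE), adjusted p = 8.00e-17. The amino sugar kinase Nagk rose by 0.67 and the chromatin remodeller Chd3 by 0.34. None of these 5 genes had overlapping groups.

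Clustered protocadherins, cell surface adhesion proteins that give single neurons their identity, rose at most members. Of 57 tested isoform genes 36 rose and 5 fell (median 0.29), against 17.5% and 15.7% of all genes. The 3 clusters differed in their counts. In the beta cluster 19 of 22 rose and none fell, with a median of 0.52. In the alpha cluster 9 of 14 rose and none fell, with a median of 0.44. In the gamma cluster 8 of 21 rose and 5 fell, with a median of 0.043. Pcdhb19 ranged from 13.7 to 18.3 CPM (median 16.4) in Ccdc82-/- and from 26.96 to 29.5 (median 27.5) in Q140 Ccdc82-/-, a log2 change of 0.76 ± 0.051 (SE), adjusted p = 3.91e-17. The Q140 libraries were tightly grouped and all above the controls. Pcdhb9 went from a range of 12.5 to 15.8 CPM (median 14.4) in Ccdc82-/- to 20.1 to 26.7 (median 21.9) with Q140 (0.68 ± 0.055 (SE), adjusted p = 2.18e-14), and Pcdhb22, Pcdhb20 and Pcdhb16 rose by 0.63, 0.55 and 0.53. Alpha and gamma isoforms share their last exons and the beta genes are near copies of each other, so the counting may have split or dropped reads between them. Outside the clusters 5 of 12 protocadherins rose and none fell. Pcdh20 went from a range of 6.49 to 10.5 CPM (median 7.94) in Ccdc82-/- to 16.4 to 24.1 (median 18.9) with Q140 (1.24 ± 0.094 (SE), adjusted p = 9.86e-15), Pcdh19 rose by 0.90 and Pcdh10 by 0.45.

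Among chromatin and developmental regulators a few genes moved far. Of 41 Polycomb genes 11 rose and 9 fell (48.8% called), with a median of 0.042, or 17 and 5 on FPKM scaling. Besides Sfmbt2, the Polycomb repressive complex member Cbx8 rose, from a range of 10.1 to 12.6 CPM (median 11.1) in Ccdc82-/- to 16.6 to 21.6 (median 18.3) with Q140 (0.71 ± 0.071 (SE), adjusted p = 1.95e-11). The histone deubiquitinase Bap1 fell by 0.20. Only 2 of 39 Hox genes and 25 of 64 other developmental transcription factors had enough counts to be tested, so those counts say nothing of the silent members. Of the 25, 4 rose and none fell (16.0%, against 17.5% of all genes higher). Wt1 and Onecut1 were near 0 in every Ccdc82-/- library and passed the filter on low counts through Q140 libraries, so nothing is read from that count. Wt1, a zinc finger factor of kidney and gonad development, rose from a range of 0.0222 to 0.16 CPM (median 0.0527) in Ccdc82-/- to 0.453 to 2.14 (median 1.31) with Q140, a log2 change of 4.22 ± 0.37 (SE), adjusted p = 3.15e-13. Onecut1 rose from a range of 0 to 0.0924 CPM (median 0.0419) in Ccdc82-/- to 0.142 to 0.834 (median 0.317) with Q140 (2.87 ± 0.48 (SE), adjusted p = 3.65e-06), and Isl1 and Six3 rose by 0.41 and 0.13. Of the Hox genes Hoxa7 rose by 1.33, with overlapping libraries. It held 0 to 0.267 CPM in Ccdc82-/- and 0.163 to 0.437 CPM with Q140, and its call was lost in a fit of either sex alone. Nothing is read from the call of Hoxa7.

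Stress, repair and metabolism genes showed mostly small changes. Of 20 genes of mismatch repair and CAG repeat instability, 5 rose and none fell (25% called, against 33.2% of all genes), or 10 and none on FPKM scaling. The mismatch repair gene Mlh3 rose by 0.12, with overlapping libraries, and the nucleotide reductase subunit Rrm2b by 0.26, without overlap. In the unfolded protein and integrated stress response 6 of 35 rose and 6 fell (34.3% called), or 11 and 3 on FPKM scaling. Its clearest change was a fall of Atf6, a sensor of the endoplasmic reticulum, from a range of 125 to 137 CPM (median 129.7) in Ccdc82-/- to 90.4 to 102 (median 97.4) with Q140 (-0.44 ± 0.026 (SE), adjusted p = 7.01e-19). Of 38 heat shock and chaperone genes 9 rose and 2 fell (28.9% called), and of 48 proteasome genes 11 rose and 2 fell (27.1%). The proteasome activator Psme1 rose by 0.43. On FPKM scaling the counts of rises grew to 19 chaperone genes and 35 proteasome genes. Of 75 nuclear genes of oxidative phosphorylation 22 rose and 5 fell, with a median of 0.045, or 53 and 1 on FPKM scaling. These are 36.0% called, near the 33.2% of all genes. Ndufs3, a complex I subunit, was among those that fell, by 0.25. Ribosomal protein genes were called at 6 of 79 (4 higher, 2 lower), and at 25 on FPKM scaling (24 higher, 1 lower). Among 35 genes of cholesterol synthesis and its control 10 fell and 5 rose (42.9% called), but 6 fell and 11 rose on FPKM scaling. The thiolase Acat2 fell by 0.42 and the regulator Srebf2 by 0.24. Interferon response genes were called at 4 of 34 (11.8%), with 3 higher, 1 lower and a median of 0.10. The one that fell was the interferon-inducible Ifi27l2a, by 1.84. It was low in both groups, at 0.355 to 1.13 CPM in Ccdc82-/- and 0.0921 to 0.337 CPM with Q140, so nothing is read from its call.

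Markers of glia and vessels were slightly lower. Of 22 microglia markers 16 fell, of 19 endothelial and mural markers 11 fell, of 20 astrocyte markers 10 fell and of 19 mature oligodendrocyte markers 8 fell, and none of these 4 lists had a gene that rose. The share that fell ran from 42.1% (mature oligodendrocytes) to 72.7% (microglia), against 15.7% of all genes. Of all genes 17.5% rose. The medians were -0.17, -0.15, -0.13 and -0.095. On FPKM scaling 9, 5, 6 and 6 fell, 1 astrocyte marker rose, and the medians were -0.11, -0.078, -0.057 and -0.028. Summed microglia markers ran from 644 to 712 CPM in Ccdc82-/- and from 578 to 638 CPM in Q140 Ccdc82-/-, and summed endothelial markers from 531 to 563 and from 470.5 to 499 CPM, in both cases without overlap. C1qc, a complement gene of microglia, went from a range of 38.5 to 41.9 CPM (median 39.6) in Ccdc82-/- to 31.2 to 36.2 (median 33.8) with Q140, a log2 change of -0.22 ± 0.037 (SE), adjusted p = 2.99e-06. Tagln, a smooth muscle gene, had the largest change of the vessel list, -0.75 ± 0.10 (SE), adjusted p = 4.17e-08. The glutamate transporter Slc1a2 of astrocytes fell by 0.24 and the myelin gene Mobp by 0.34. Fbln5, in the list of reactive astrocyte genes, fell by 0.81. In that list 4 of 19 fell and 1 rose (26.3% called, against 33.2% of all genes).

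Neurons other than MSN were checked as a mark of the dissection. Of 16 striatal interneuron genes 2 rose and 2 fell. Cortical excitatory markers were higher at 5 and lower at 1 of 15, or 33.3% and 6.67%, against 17.5% and 15.7% of all genes. Their median was 0.20, and their sum ran from 429 to 469 CPM in Ccdc82-/- and from 483 to 533 CPM in Q140 Ccdc82-/-. Bcl11a, Lamp5, Mef2c and Cux2 rose by 0.28, 0.25, 0.20 and 0.35 on the log2 scale, without overlap. Most of the sum in Ccdc82-/- came from Mef2c (158.8 to 180.1 CPM), Lamp5 (87.0 to 103.2 CPM) and Bcl11a (67.7 to 78.2 CPM). The sum therefore mainly follows Mef2c, Lamp5 and Bcl11a, and little of it comes from the scarce markers that follow. The defining cortical markers were scarce in both groups: Slc17a7, the vesicular glutamate transporter, had 2.19 to 4.58 CPM (median 2.698) and 1.93 to 7.01 (median 2.95) and was not called (0.16, or -0.19 without Q140 Ccdc82-/- female 3), and the group means of Neurod6 and Tbr1 were 0.204 and 0.519 CPM in Ccdc82-/- and 0.2697 and 0.713 CPM with Q140. Of 12 ependymal markers and 5 blood markers none was called. The part of other tissue in these results was not tested.

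The choroid plexus list turned on 1 library. With all libraries 6 of 14 markers fell and 1 rose, with a median of -0.72. Without Ccdc82-/- male 1 none fell and 1 rose, with a median of -0.029. Ttr, the thyroid hormone carrier of the choroid plexus, had 281 CPM in that library, 0.835 to 14.5 CPM in the other 7 controls and 0.344 to 7.13 (median 6.05) in the Q140 group. Its log2 change was -2.67 ± 0.84 (SE), adjusted p = 0.0115, and without the library -0.38, adjusted p = 0.704. Aqp1, Prlr, Slc4a5, Kcne2 and Enpp2 lost their call in the same way. The exception was Clic6, a chloride channel gene, which rose from a range of 16.3 to 27.7 CPM (median 18.8) in Ccdc82-/- to 21.3 to 26.3 (median 23.4) with Q140, at 0.27 ± 0.073 (SE), adjusted p = 0.0025, and by 0.36 without the library. Of the 203 genes that moved by at least 1, 192 were still called and 11 were lost, among them Ttr, Slc4a5, Kcne2 and Aqp1. With plate column as a factor 11 of the 14 markers were called lower.

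**Figure D3:**
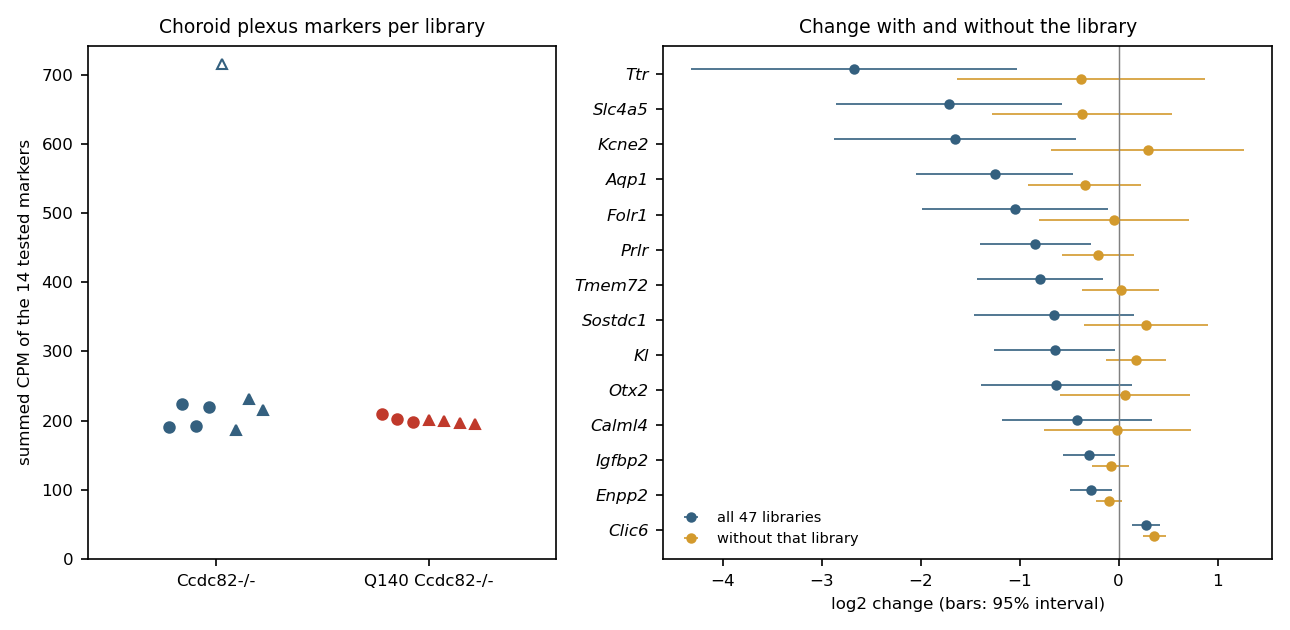
Left, summed CPM of the 14 tested choroid plexus markers in each Ccdc82-/- and Q140 Ccdc82-/- library, with 1 control at 716 and all others between 186 and 232. Right, the log2 change of each marker with its 95% interval over all 47 libraries (blue) and without that control library (orange), where only Clic6 stays clear of 0.

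The next comparison asked whether the Q140 effect on Ccdc82-/- differed from that on the other backgrounds. No gene passed for the difference from the wild type background (0.0% of 19193, edgeR, smallest adjusted p = 0.998). At an unadjusted p under 0.05 there were 826 genes (4.30%), and DESeq2 and limma-voom also called none, with 811 and 1054 at that unadjusted level. Against the Ccdc82+/- background none passed either (0.0%), with 470 genes (2.45%) at an unadjusted p under 0.05, 467 by DESeq2 and 782 by limma-voom. The 95% interval of such a difference had a median half-width of 0.12 on the log2 scale over the 13938 genes that averaged 1 or more on the log2 CPM scale. For Penk the effect here minus that on wild type was -0.040 (95% interval -0.15 to 0.071), for Drd1 -0.020 (95% interval -0.11 to 0.073), for Scn4b -0.10 (95% interval -0.28 to 0.071) and for Sfmbt2 -0.029 (95% interval -0.36 to 0.31). The smallest unadjusted p for a difference was that of Ehbp1, which rose by 0.24 here and changed by 0.093 with Q140 on wild type, a difference of 0.15 (95% interval 0.079 to 0.21) with an adjusted p of 0.998.

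Since the 3 contrasts share no library, their calls can be set side by side. Of the genes called with Q140 on the wild type background (3485 higher, 3170 lower), 73.4% were called here in the same direction, which is 76.7% of the genes called here. On the Ccdc82+/- background the shares were 76.4% and 80.7%. Genes called in opposite directions numbered 1 (Fmo2, 0.48 on wild type and -0.51 here) and 0. The call of Fmo2 here was at the threshold (adjusted p = 0.0464) and was lost without any 1 of 9 libraries, with a log2 change of -0.31 and an adjusted p of 0.222 without Ccdc82-/- male 3. Among genes that averaged 1 or more on the log2 CPM scale, 54 were called on wild type and moved there by at least 1. All 54 were called here in the same direction, with a median ratio of 0.989 between the changes. All 3 backgrounds called 4434 genes in 1 direction. Another 776 genes were called here alone, but 647 of them had the same sign on both other backgrounds, and their median size was 0.19. Correlations were taken over genes that averaged 1 or more on the log2 CPM scale, which are not independent. The change here correlated with that on wild type at r = 0.916 and with that on Ccdc82+/- at r = 0.930. The MSN identity median was -0.40 on the wild type background and -0.44 on the Ccdc82+/- background, and the immediate-early median -0.48 on the wild type background and -0.45 on the Ccdc82+/- background. For microglia the medians were -0.097 on the wild type background and -0.15 on the Ccdc82+/- background, and for the beta protocadherins 0.46 and 0.48. The values here were -0.44, -0.55, -0.17 and 0.52. Other lists changed sign between backgrounds. The cortical excitatory median, 0.20 here, was -0.15 on the wild type background and -0.049 on the Ccdc82+/- background. The ependymal median, 0.028 here, was -0.31 and 0.16, and the interferon median, 0.10 here, was -0.063 and 0.15. The choroid plexus median, -0.72 here and -0.029 without Ccdc82-/- male 1, was -0.54 and 0.017. The wild type group also held a library high in these markers. Wild type male 1 summed to 291 CPM, against 175 to 213 CPM in the rest of its group. Its part in the median of -0.54 was not tested. No gene of any list passed for a difference between backgrounds.

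**Figure D4:**
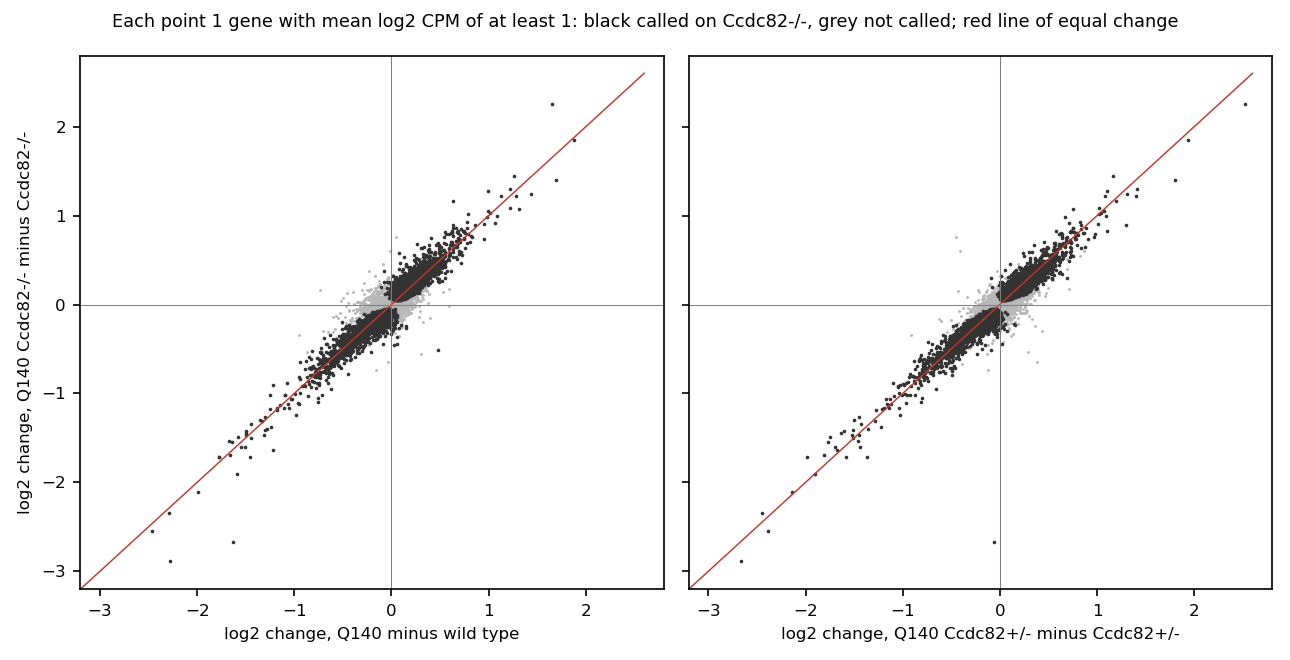
Log2 change with Q140 on Ccdc82-/- (vertical) against that on the wild type (left) and Ccdc82+/- background (right) for each gene that averaged 1 or more on the log2 CPM scale, black where called on Ccdc82-/- and grey where not. Points follow the red line of equal change (r = 0.916 and 0.930), with Ttr as the point farthest below it.

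**Figure D5:**
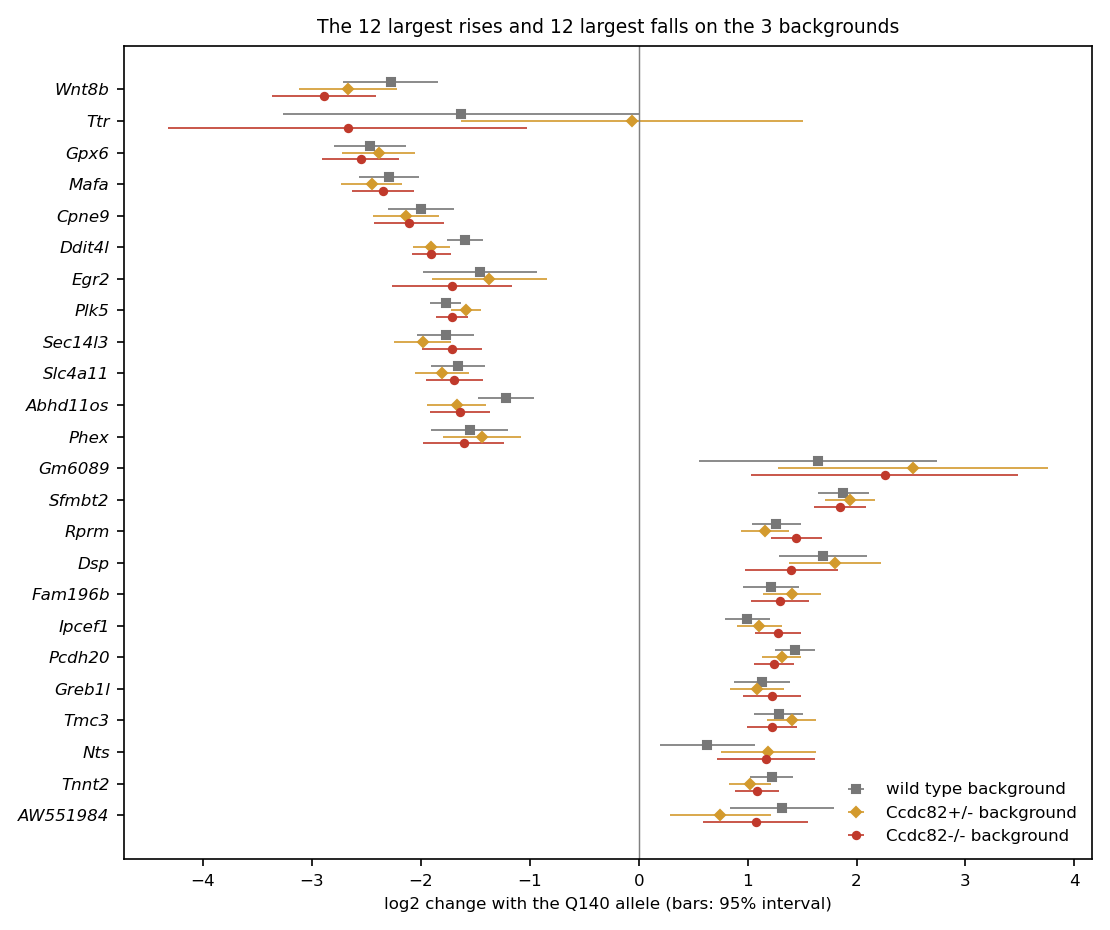
Log2 change with Q140 and its 95% interval for the 12 largest rises and 12 largest falls on Ccdc82-/- (red), beside the wild type (grey) and Ccdc82+/- (gold) backgrounds. The genes were chosen by their change on Ccdc82-/-, and the values on the other backgrounds come from other mice. All 24 have the same sign on the 3 backgrounds, with Ttr near 0 (-0.062) on Ccdc82+/-.

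No difference between females and males passed the test. In a model with a coefficient for each genotype and sex, no gene of 19714 (0.0%) passed for a difference of the Q140 effect between sexes on this background by edgeR, and 784 (3.98%) had an unadjusted p under 0.05. Penk changed by -1.06 in females and by -1.08 in males, and Pcdhb19 by 0.73 and 0.79. Fitted on each sex alone, 31 MSN identity genes fell in females and 32 in males. Of the oxidative phosphorylation genes 2 rose in females and 11 in males, and of the interferon genes 2 rose and 1 fell in females, against 1 and 4 in males. Over all genes 1646 rose and 1806 fell of 19263 tested in females, and 1867 and 1916 of 19252 in males. Whether these list counts differ between sexes was not tested.

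Near the knocked-in locus the calls were about as dense as elsewhere. Of 146 tested genes within 5 Mb of Htt on chromosome 5, 30 rose and 27 fell, or 39.04% against 33.2% of all genes. The gene with the smallest p there was Gm2420, a transcribed unprocessed pseudogene at chr5:32720330-32736194 (GRCm38). It was near 0 in every Ccdc82-/- library and passed the filter on low counts through Q140 libraries, so nothing is read from that rank. It had 0 to 0.0485 CPM (median 0.0221) in Ccdc82-/- and 0.761 to 1.47 (median 1.07) in Q140 Ccdc82-/-, a log2 change of 5.42 ± 0.32 (SE), adjusted p = 7.71e-19, and its values on the other backgrounds were 5.44 and 5.36. Whether its reads come from the pseudogene itself or from a related sequence was not tested. Adra2c, an adrenergic receptor gene, fell by 0.51 and the phosphatase subunit Ppp1cb by 0.20.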

How the data were processed

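The authors deposited whole-number gene counts and FPKM for 47 libraries (48795 genes); no other numeric column was present. The submitters' processing notes name STAR 2.7.5c, SAMtools 1.10, HTSeq 0.12.3 and GRCm38/mm10; per the labels, libraries were TruSeq stranded. How the counting handled strand and multiple matches is not given in the sources used here. Deposited FPKM are counts per gene length and total count, so a shift in a few abundant genes moves them.

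Groups were taken from the genotype labels. Counts were fitted with edgeR 4.0.16 (R 4.3.3): filterByExpr, TMM factors (0.970 to 0.991 in Ccdc82-/-, 1.012 to 1.041 in Q140 Ccdc82-/-), 1 coefficient for each of 6 groups plus sex over all 47 libraries, and the quasi-likelihood test, with Benjamini-Hochberg adjustment over all genes tested and a threshold of 0.05. Every adjusted p is from this fit unless another tool is named. Standard errors were taken as the log2 change over the root of F, and 95% intervals as 1.96 of them. Sex differences used 12 coefficients, 1 for each genotype and sex. Alternatives were DESeq2 1.42.0, limma 3.58.1 with voom, limma on log2(FPKM + 0.1) for genes over 0.1 FPKM in at least 7 libraries, and those in the closing section. The edgeR script was tested on simulated data. No 2 libraries agreed within counting noise (lowest chi-square per degree of freedom 3.53). The labels number libraries within genotype and sex and do not tie them to litters or days, so p-values measure the spread between these samples.

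The members and 44 gene lists were chosen with earlier results of these data known. Lists can share members, so their counts are not independent. Genes were named by rule: the 12 largest rises and falls among genes averaging 1 or more on the log2 CPM scale, the 5 largest among lower genes, the 10 smallest p-values in each direction, up to 5 of each list by p, the smallest p-values of each difference, and the choroid plexus markers. Gad1, Gad2, Pdyn, Fosb, Btg2, Arc, Nr4a1, Nr4a2, Slc17a7, Neurod6, Tbr1, Adra2c and Ppp1cb were added after their values were seen. Some genes that the rule names are not reported here. Positions and gene types are from GENCODE M21 (48349 IDs matched), and promoter sequences from RefSeq.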

Additional observations from a re-analysis of the deposited data

Results flagged for a closer look

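For each of the 142 genes named, the level of the highest and lowest library of a group was checked for a gap to its neighbour that was large against the group's whole range (Dixon's test at the 95% level). Of 284 groups 24 (8.45%) had such a library, where chance gives about 1 in 20. Each value is given with the level of the next library of its group.

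Ccdc82-/- male 1 accounted for 7, all choroid plexus markers and all highest of their group. Ttr was at 281 CPM (next 14.5), Enpp2 at 355 CPM (next 187) and Clic6 at 27.7 CPM (next 20.4). Prlr was at 3.67 CPM (next 1.08), Slc4a5 at 2.98 CPM (next 0.383), Aqp1 at 2.17 CPM (next 0.4) and Kcne2 at 2.15 CPM (next 0.161).

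Ccdc82-/- female 1 was lowest for the immediate-early genes Egr2, at 18.8 CPM (next 44.3) and Nr4a1, at 101 CPM (next 232), and for Gad2, at 482 CPM (next 529). Ccdc82-/- female 2 was highest for Nagk, at 21.6 CPM (next 19.5), Prdx5, at 118 CPM (next 106), and Wnt4, at 4.27 CPM (next 3.46), and lowest for Itpr1, at 1486 CPM (next 1659). Ccdc82-/- male 3 was highest for Plekhs1, at 0.194 CPM (next 0.116), and Ccdc82-/- female 4 for AW551984, at 3.74 CPM (next 1.89).

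In the Q140 group male 2 was lowest for Syp, at 575 CPM (next 647), and Cpne9, at 3.11 CPM (next 3.87), and highest for Gpx6, at 3.98 CPM (next 2.54). Female 2 was highest for Onecut1, at 0.834 CPM (next 0.351), and Tmc3, at 4.45 CPM (next 3.21). Female 3 was highest for the cortical markers Slc17a7, at 7.01 CPM (next 3.88), and Neurod6, at 0.604 CPM (next 0.322), and male 4 for AW551984, at 6.24 CPM (next 3.98).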

How the results depend on the processing

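The counts of genes with a Q140 effect on Ccdc82-/- stayed within 1.5 times 3360 higher and 3007 lower under 10 alternatives and each leave-one-out. These were RLE factors, DESeq2, limma-voom, a fit of all genes, one without sex, a replicate block, plate column as a factor (2937 and 2724), only the 2 groups compared (2757 and 2777), no high choroid plexus library and that list's level as a covariate. Leaving out each library gave 3094 to 3343 higher and 2848 to 2984 lower. Larger moves came with limma on FPKM (6134 higher, 1812 lower), with females only (1646 and 1806) and with males only (1867 and 1916), which hold fewer libraries. The labels do not say whether the number in a sample's title pairs mice. Deviations of same-numbered libraries correlated at -0.403 to 0.557 and 1 of 7 was best with its own number. Such correlations cannot show whether mice shared a litter or a day. The fit with the replicate block called 3300 higher and 2976 lower. No background or sex difference passed under any alternative run, with 670 to 1596 genes at an unadjusted p under 0.05 against wild type and 430 to 1222 against Ccdc82+/-, and 753 to 1158 between sexes. The Ccdc82 difference, -0.00771 CPM, changed sign on total-count CPM (0.205, exact permutation p = 0.569) and in 6 of 15 leave-one-outs, which ranged from -0.139 to 0.179, all within the spread between libraries. Among named genes Kcne2 turned positive without the high choroid plexus library (0.295, and -1.871 without Ccdc82-/- male 3, the ends of its leave-one-outs) and with its level as a covariate (0.286), and Slc4a5 in females only (0.242). Of genes not called, Slc17a7 turned negative without Q140 Ccdc82-/- female 3 (-0.192), and Slc17a7, Neurod6 (-0.128) and Pdyn (-0.022) did so in males only. The causes were not tested. Over genes that averaged 1 or more on the log2 CPM scale the median 95% half-width was 0.0866 for the effect and 0.12 for a difference between backgrounds.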

Other observations

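Genes of low level gave the largest fold changes. Ifi27l2b, an interferon-inducible gene, ranged from 1.17 to 2.28 CPM (median 1.59) in Ccdc82-/- and from 0.0595 to 0.231 (median 0.1098) in Q140 Ccdc82-/-, a log2 change of -3.71 ± 0.27 (SE), adjusted p = 6.99e-16 by edgeR. Sohlh1, a germ cell transcription factor, ranged from 0.447 to 1.0001 CPM (median 0.576) and from 0.02301 to 0.0724 (median 0.0533), a log2 change of -3.53 ± 0.29 (SE), adjusted p = 3.04e-14. Neither gene had overlapping groups. Aoah, a lipopolysaccharide-degrading enzyme, fell by 2.44 and Tmem114 by 2.41 on the log2 scale, while Plekhs1 rose by 2.02. Plekhs1 was near 0 in every Ccdc82-/- library and passed the filter on low counts through Q140 libraries. Ifi27l2b and Sohlh1 were near 0 in every Q140 Ccdc82-/- library and passed it through libraries without Q140. Tmem114 was also low in every Q140 Ccdc82-/- library, at 0.0792 to 0.426 CPM, against 0.808 to 1.42 CPM in Ccdc82-/-. Nothing is read from the calls of Plekhs1, Ifi27l2b, Sohlh1 and Tmem114. On the wild type and Ccdc82+/- backgrounds the changes were -3.62 and -4.62 for Ifi27l2b, and -3.64 and -3.497 for Sohlh1.

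Trophic factor genes fell at 5 of 12 and rose at none (41.7% called, against 33.2% of all genes). Nrtn, which encodes the growth factor neurturin, ranged from 2.27 to 4.03 CPM (median 3.09) in Ccdc82-/- and from 1.34 to 1.93 (median 1.44) in Q140 Ccdc82-/-, a log2 change of -1.05 ± 0.13 (SE), adjusted p = 5.73e-09. Its receptor Gfra2 fell by 0.41, the neurotrophin receptor Ntrk3 by 0.36 and the sorting receptor Sort1 by 0.20. Of 25 p53 targets 4 fell and 2 rose (24.0% called), or 3 and 8 on FPKM scaling, including the cell cycle inhibitor Cdkn1a at -0.60 and the nucleotide reductase subunit Rrm2b at 0.26. Of 39 autophagy genes 8 fell and 7 rose (38.5% called), or 4 and 20 on FPKM scaling. Antioxidant enzymes were split at 8 and 8 of 35 (45.7% called), or 2 and 14 on FPKM scaling, and besides Gpx6 the peroxiredoxin Prdx5 fell by 0.25. Of 13 mitochondrially encoded genes 2 fell, of 12 oligodendrocyte precursor markers 2 rose and 2 fell, and of 12 thalamic, pallidal and septal markers 2 rose and 1 fell.

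By annotated type, 37.5% of 15066 protein-coding genes were called, 21.3% of 654 lincRNAs, 23.2% of 621 antisense RNAs and 12.3% of 1183 processed pseudogenes. These types also differ in level, which was not tested.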
